A study of Mus musculus with 18 samples.

Results

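The mature miRNAs described here come from the rodent-specific clusters between Slitrk2 and Fmr1 on the mouse X chromosome, which hold the miR-465 family with miR-470, miR-741, miR-743a, miR-871, miR-878, miR-880, miR-881 and miR-547. They were 10 named mature miRNAs of 1367 that the deposited tables list in all, and 9 of the 10 were listed in at least 1 table (miR-880-3p was listed in none). The members were chosen by their normalized counts, for falls with miR-290~295 overexpression in these same libraries, so in that contrast their values are given as a description, with no test. Mature miRNAs were measured by small RNA sequencing in 18 mouse libraries of 8 groups. Mouse embryonic fibroblasts (MEF) had the miR-17~92 cluster overexpressed (OV), floxed with the cluster intact (fl/fl) or deleted (d/d), with 3 libraries each. Further d/d MEF carried an empty plasmid (Empty) or overexpressed miR-290~295, also with 3 libraries each, so all 6 of these libraries lack miR-17~92. B cells from spleen, with miR-17~92 deleted, floxed or overexpressed, gave 1 library each. Every library, MEF included, carries the strain label Eu-myc mice, a name for a transgene in which an immunoglobulin enhancer drives Myc in B-lineage cells. The labels give neither the Cre, the vectors, the age of the animals nor whether MEF replicates are separate cultures, so p-values measure only the spread between these libraries, which may be technical.

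Each primary transcript of such a cluster folds into hairpins, which Drosha and then Dicer cut to a mature miRNA from the 5p or the 3p arm. A mature miRNA pairs with target messages mainly through its seed, bases 2 to 8. The X-linked clusters near Fmr1 evolve quickly, have many near-copies, and are known in mouse mainly for expression in testis and male germ cells. miR-470 was described in mouse embryonic stem cells as targeting the messages of pluripotency factors such as Nanog, and miR-743a in mouse neuronal cells as targeting the message of a mitochondrial malate dehydrogenase. miR-17~92 is an oncogenic cluster induced by Myc, and miR-290~295 is the main miRNA cluster of mouse embryonic stem cells.

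The sequences of all 8 members with more than 1 read in any library are shown because their similarity decides which reads can be told apart. They are RefSeq mature sequences on GRCm38.p6, 5′ to 3′, with the seed in capitals.
mmu-miR-465b-5p: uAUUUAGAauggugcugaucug
mmu-miR-465c-5p: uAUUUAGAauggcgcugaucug
mmu-miR-470-5p: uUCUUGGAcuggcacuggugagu
mmu-miR-871-3p: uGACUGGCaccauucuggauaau
mmu-miR-881-3p: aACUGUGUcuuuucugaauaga
mmu-miR-741-3p: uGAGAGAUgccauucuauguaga
mmu-miR-878-5p: uAUCUAGUuggaugucaagaca
mmu-miR-547-3p: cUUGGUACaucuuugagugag

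miR-465b-5p and miR-465c-5p share the seed AUUUAGA with each other and with miR-465a-5p and miR-465d-5p, and differ at U13C alone, counted from the 5′ end of miR-465b-5p. Reads of that pair therefore separate on 1 base, and their split is uncertain because no source used here gives the counting method. miR-743a-3p shares its seed AAAGACA with miR-743b-3p, and the seeds of the other 7 members occur in no other mouse miRNA of the RefSeq table. Outside the cluster the nearest listed miRNA was at least 6 edits away from any member, with miR-380-3p at 6 edits from miR-465b-5p. The last 4 letters UAGA, chosen after the sequences were seen and searched at the 3′ end of the mature strand only, closed 4 of the 6 members from a 3p arm (66.7%), 9 of the 20 3p miRNAs of the cluster (45%) and 3 of 689 other mouse 3p miRNAs (0.435%). A shared ending is a description of these letters and not a site.

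In RefSeq and GENCODE annotation of GRCm38, the hairpins lay in separate groups on the minus strand of chromosome X. The larger group, at the Slitrk2 side, held 19 hairpins over 62.4 kb (chrX:66776757-66839125), started 115.4 kb from Slitrk2 and ended 1839.4 kb before the start of Fmr1. It holds every member except miR-547. The smaller group, of Mir201, Mir547 and Mir509, spanned 22.1 kb (chrX:67988096-68010179) and ended 668.4 kb before Fmr1, with a gap of 1149.0 kb between the groups. The miR-547-3p strand lies at chrX:67988383-67988403 and the miR-881-3p strand at chrX:66801954-66801975. miR-465b-5p and miR-465c-5p are each encoded by 2 hairpins, for example at chrX:66835811-66835832 and chrX:66826004-66826025. No annotated gene other than the miRNAs overlapped any hairpin, and each group contained 1 pseudogene, Gm14681 at the Slitrk2 side and Gm14688 nearer Fmr1.

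A library held between 17191892 and 24920911 reads on listed miRNAs among the miR-17~92 MEF, between 43164128 and 58911475 among the miR-290~295 MEF and between 10203586 and 10612256 among the B cells. Values below are normalized counts, that is reads divided by 1 size factor per library, from the tables without spike-in scaling. The labels held for the targeted clusters. miR-17~92 summed to 383473 to 460098 normalized counts in OV MEF, 67676 to 97236 in fl/fl and 1419 to 1708 in d/d. miR-290~295 summed to 769474 to 902627 in the libraries that overexpress it and to 1580 to 2065 in Empty. All 6 miRNAs of a mesenchymal and fibroblast list were detected in every MEF group and all 5 of a B cell and blood list in B cells. Of the embryonic stem cell list (miR-302a, miR-302b, miR-302d and miR-367), 0 of 4 were listed in any set.

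The members were rare miRNAs in every library. In the miR-17~92 MEF set 8 were listed, and miR-547-3p ranked 461 of 1204 by mean normalized count while the other 7 ranked 758 to 1187. In the miR-290~295 set 9 were listed, at ranks 744 to 1258 of 1265, and in B cells 2 were listed. A mean of at least 10 normalized counts was required for the main test. That minimum, taken over all libraries of a set, kept miR-547-3p alone of 8 in the miR-17~92 set. Its mean was 2.61 in d/d, so it passed through OV and fl/fl only. In the miR-290~295 set the minimum kept 6 of 9, with miR-871-3p the lowest kept, at 10.3, and miR-741-3p the next below, at 2.39. The 6 had means of 1.92 to 7.66 in the miR-290~295 libraries, so all passed through Empty only. The tables hold only miRNAs left after the submitters' own filter, so a member that is not listed has no value here.

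In reads per 1000000 reads on listed miRNAs (RPM), the members at the Slitrk2 side and miR-547-3p had different orders over the MEF groups. The sets were normalized separately and their libraries differ in depth, so levels across sets are given side by side with no test. miR-547-3p had a mean of 4.34 ± 1.79 RPM in OV (SD, n = 3), 2.80 ± 0.922 in fl/fl, 0.273 ± 0.0585 in Empty, 0.162 ± 0.0465 in miR-290~295 and 0.144 ± 0.0731 in d/d MEF. In that order, OV overlapped fl/fl, miR-290~295 overlapped d/d, and no library of fl/fl overlapped Empty or of Empty overlapped miR-290~295. The nearest Empty and miR-290~295 libraries had 9 listed reads each, so their order rests on depth. Empty did overlap d/d, where library DEL3 had 0.224 RPM against 0.209 in the lowest Empty library. The sum of the listed Slitrk2-side members had its highest mean in Empty, at 2.77 ± 0.727 RPM, then 1.37 ± 0.577 in d/d, 1.04 ± 0.215 in fl/fl, 0.549 ± 0.271 in OV and 0.392 ± 0.223 in miR-290~295. Each neighbour in this order overlapped the next. As a share of all member reads, the Slitrk2-side members made up 6.31% to 16.1% in OV, 24.4% to 29.8% in fl/fl, 89.7% to 91.4% in d/d, 90.3% to 91.3% in Empty and 47.1% to 85.0% in miR-290~295 MEF.

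**Figure D1:**
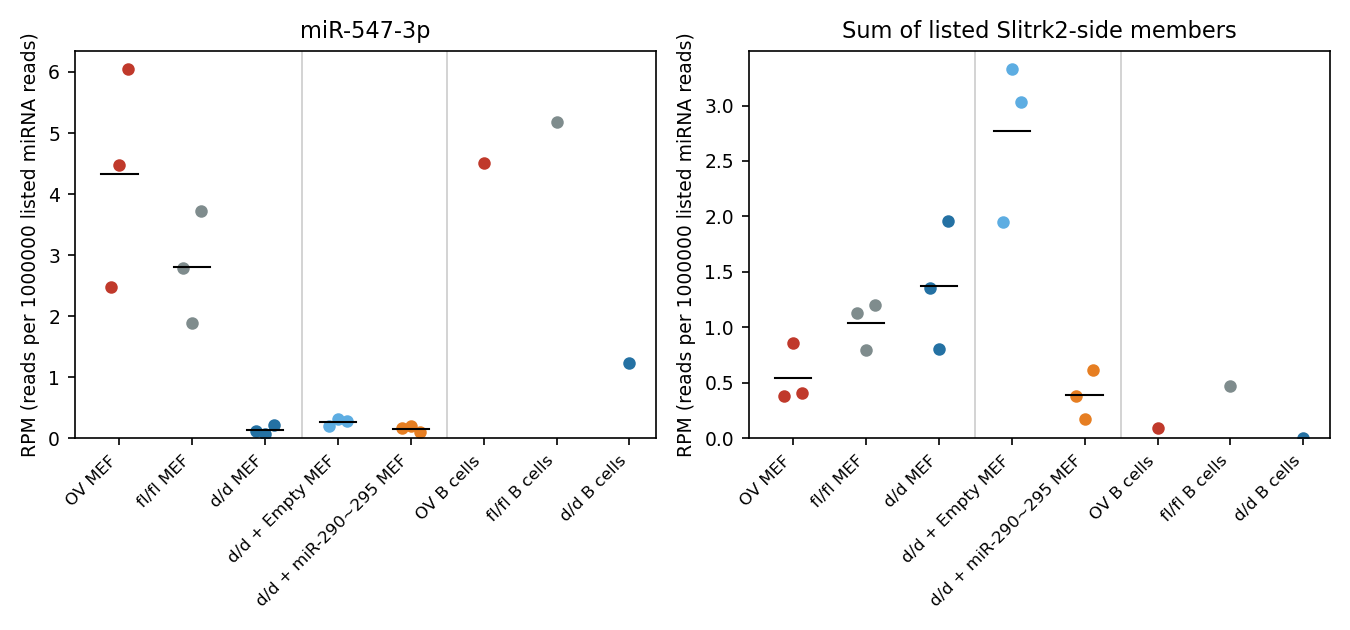
RPM (reads per 1000000 reads on listed miRNAs) of miR-547-3p (left) and of the sum of the listed Slitrk2-side members (right). Each point is 1 library and each black line a group mean, and grey lines separate the sets, which were normalized separately. miR-547-3p lies between 1.89 and 6.05 in all OV and fl/fl MEF and at most at 0.323 in all MEF without miR-17~92, while the Slitrk2-side sum has its highest group mean in Empty, with 1 d/d library just above the lowest Empty library.

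miR-547-3p was lower in d/d MEF than in MEF with an intact or an overexpressed miR-17~92 cluster. Its normalized counts were 53.2, 37.8 and 72.8 in the fl/fl libraries (FL3, FL4 and FL5 in the tables), 45.6, 89.3 and 114 in the OV libraries (OV1, OV2 and OV4), and 2.13, 1.45 and 4.25 in the d/d libraries. Every d/d library lay below every other library, and OV and fl/fl overlapped. Behind these values stood 150 reads in fl/fl, 228 in OV and 9 in d/d MEF.

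On the log2(normalized count + 1) scale miR-547-3p fell by 3.97 ± 0.41 (SE) in d/d against fl/fl, with an adjusted p of 2.34e-05 from limma with Benjamini-Hochberg adjustment over 662 miRNAs, of which 27.6% were called lower in this comparison. Over 13 alternative settings the log2 difference ran from −4.49 to −2.94 and the adjusted p from 7.21e-12 to 0.000268. Without the minimum, limma gave an adjusted p of 1.47e-05. From summed reads the level in fl/fl was 22.6 times that in d/d, with a 95% interval of 11.6 to 50.4 that covers counting error only. Against d/d, miR-547-3p was higher in OV by 4.52 ± 0.41 (limma, adjusted p = 5.45e-06, over the alternatives 4.12e-15 to 6.61e-05), where 26.7% of the miRNAs tested were called higher. Between OV and fl/fl the log2 difference was 0.55 ± 0.41 and was not called (limma, adjusted p = 0.323, over the alternatives 0.0991 to 0.675), where 31.3% were called in either direction. These comparisons share libraries, so their values are not independent.

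With spike-in scaling the median log2 difference of all tested miRNAs moved from 0.02 to −0.39 in d/d against fl/fl, and its calls from 203 higher and 183 lower to 147 and 283. In OV against d/d the median moved from 0.02 to 0.60 and the calls from 177 higher and 170 lower to 333 and 120. In OV against fl/fl it moved from −0.07 to 0.07, and the calls from 103 and 104 to 112 and 44. The differences of miR-547-3p with spike-ins were −4.29, 4.98 and 0.68, in the same directions. Among the marker lists, the male germ cell list (miR-34b-5p, miR-34c-5p and miR-449a-5p listed, which other cells also express, and miR-202-5p not) summed to 7382 to 9060 normalized counts in d/d against 13509 to 16474 in fl/fl and 16071 to 17657 in OV. The epithelial list (3 of 4 listed, miR-141-3p not) summed to 35.6 to 57.4 in d/d, 201 to 207 in fl/fl and 69.2 to 78.4 in OV. The B cell and blood list (4 of 5 listed, miR-223-3p not) summed to 4160 to 5815 in d/d, 8053 to 8500 in fl/fl and 5773 to 9716 in OV. Other lists overlapped between d/d and fl/fl. The neural list summed to 13252 to 14185 in d/d, 14115 to 15724 in fl/fl and 9900 to 11565 in OV. The mesenchymal and fibroblast list summed to 1270330 to 1516060 in d/d, 1174640 to 1470530 in fl/fl and 1112890 to 1342510 in OV. The part of these lists in the fall of miR-547-3p was not tested. In bulk libraries fewer cells of a type and less RNA per cell cannot be told apart.

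The other strand of the same hairpin, miR-547-5p, had 1, 1 and 0 reads in OV, 0, 1 and 0 in fl/fl and 0 in each d/d library. miR-201-5p, from the adjacent hairpin, had 3, 1 and 2 reads in OV, 1, 0 and 4 in fl/fl and 0, 2 and 0 in d/d. At these counts neither was called in any of the 3 comparisons, and a difference of the size seen for miR-547-3p was not detectable for miR-547-5p at this depth.

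The 7 listed members at the Slitrk2 side had from 0 to 17 reads in any library of the miR-17~92 set, and none of them passed the minimum. Without a minimum, limma called 0 of the 7 in each comparison. The lowest adjusted p among them was 0.242 in OV against fl/fl, where 17.3% of all 1204 listed miRNAs were called, 0.235 in d/d against fl/fl, where 33.5% were, and 0.0625 in OV against d/d, where 30.1% were. edgeR's quasi-likelihood test on recovered reads also called 0 of 7, with lowest adjusted p-values of 0.397, 0.282 and 0.111. Over all 1204 listed miRNAs edgeR called 191, 403 and 358 in the same order. The 6 listed miRNAs of the cluster that are no members, taken from a list of 40 mature strands, had 0 calls by either test in each comparison. They were miR-201-5p, miR-547-5p, miR-743a-5p, miR-465a-3p, miR-465b-3p and miR-465c-3p. The last 3 have the same sequence and the same reads, so they give 1 value under 3 names. miR-743a-5p had 0 reads in each OV and fl/fl library and 2, 0 and 2 in d/d.

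miR-465c-5p, the member with the lowest adjusted p in OV against d/d, had normalized counts of 1.98, 0 and 2.20 in OV, 6.14, 2.29 and 2.24 in fl/fl and 3.55, 4.36 and 8.50 in d/d MEF. All OV libraries lay below all libraries of both other groups, while fl/fl and d/d overlapped. The nearest OV and fl/fl libraries had 2 listed reads each, so their order rests on the size factors. Its log2 difference in OV against d/d was −1.53 ± 0.57. Of all 1204 listed miRNAs, 202 were lower without overlap in OV against fl/fl and 246 in OV against d/d. Among members, miR-741-3p was also lower without overlap in OV against fl/fl. Its nearest libraries, OV1 and FL3, had 1 read each. miR-871-3p had 0, 5.72 and 1.10 in OV, 4.09, 2.29 and 4.48 in fl/fl and 3.55, 5.08 and 5.32 in d/d MEF, so library OV2 was the highest of all 9. Leaving out that library gave miR-871-3p an adjusted p of 0.0139 in OV against d/d (limma without a minimum). Of the 42 values that this comparison gave for the 7 members with 1 library left out, 2 were calls, this one and miR-465c-5p without OV4. Over all 1204 listed miRNAs these fits called 317 to 358. The corresponding fits gave 0 calls of 42 in each of the other 2 comparisons. Over all 1204 they called 103 to 228 in OV against fl/fl and 330 to 363 in d/d against fl/fl.

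Of the Slitrk2-side members in this set, miR-465b-5p had the widest spread, at 5.69, 0 and 18.1 normalized counts in the 3 d/d libraries, against 4.09, 4.58 and 6.72 in fl/fl and 1.98, 6.87 and 2.20 in OV. The d/d values bracketed those of both other groups. miR-881-3p had 5.69, 2.18 and 0 in d/d, 2.05, 1.15 and 5.60 in fl/fl and 0.992, 1.14 and 2.20 in OV, and its groups overlapped. miR-470-5p ran from 0 to 4.58 in the whole set, miR-741-3p from 0 to 2.24, and miR-878-5p had reads in 2 d/d libraries only (2 reads and 1 read). In OV against d/d the log2 difference was negative for 7 of 7 Slitrk2-side members, of which 2 turned positive with spike-in scaling, with a median of −0.66, beside 49.8% negative and a median of 0.00 over all listed miRNAs. miR-878-5p, 1 of these 7, was not listed with spike-in scaling. In OV against fl/fl the log2 difference was negative for 6 of 7, beside 52.6% of all, with a median of −0.90 against −0.03. There miR-878-5p had no reads and a difference of 0. In d/d against fl/fl the difference was negative for 4 of 7, beside 49.3% of all. The median was −0.26 against 0.01 and was that of miR-465b-5p, whose mean of 7.92 in d/d was above its 5.13 in fl/fl. Its log2 difference turned to 0.09 with a pseudocount of 5, to 0.54 with edgeR and to 0.91 without DEL2, and that of miR-881-3p from −0.34 to 0.01 with edgeR, to 0.12 without FL5 and to 0.40 without DEL3. With spike-in scaling miR-871-3p turned from 0.31 to −0.03 in this comparison. In OV against d/d, miR-465b-5p turned positive with spike-in scaling, at 0.14, and without DEL3, at 0.71, and miR-881-3p with spike-in scaling, at 0.11, and without DEL1, at 0.42. The direction of miR-465b-5p and miR-881-3p thus depended on the setting in both comparisons with d/d.

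**Figure D2:**
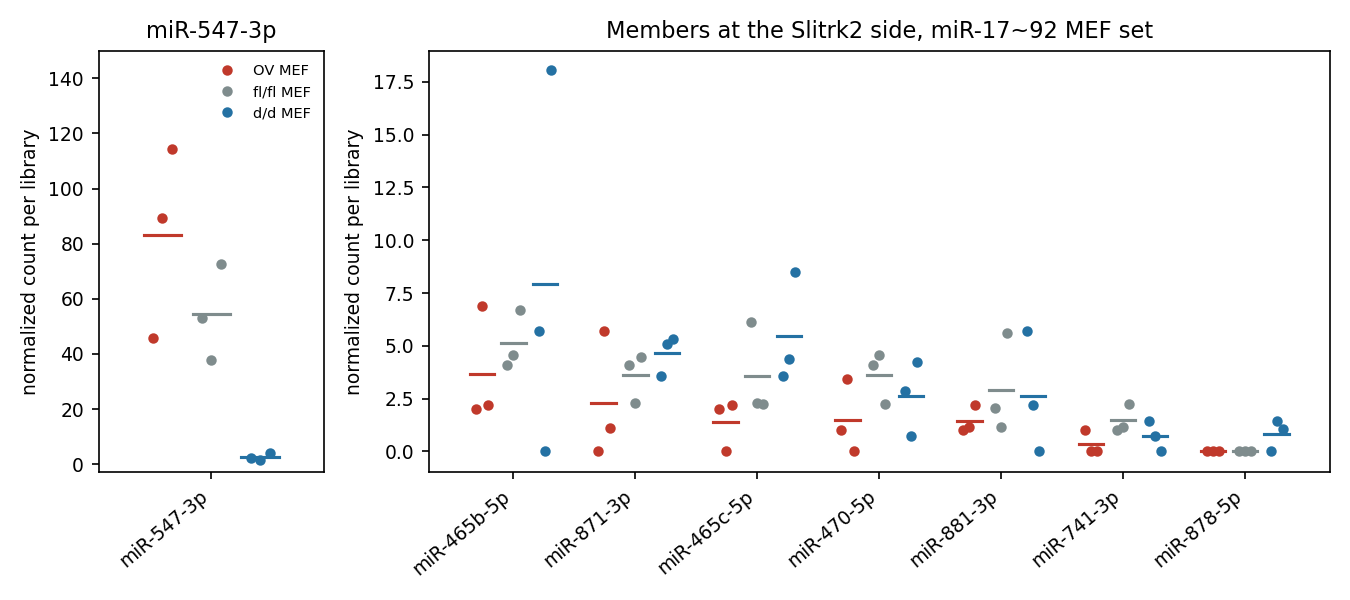
Normalized counts of miR-547-3p (left) and of the 7 listed Slitrk2-side members (right) in MEF with miR-17~92 overexpressed (OV), floxed (fl/fl) or deleted (d/d). Each point is 1 library and each line a group mean of 3. The vertical axes differ. miR-547-3p separates d/d from the other groups, while the groups of most other members overlap between 0 and 18.1.

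With miR-290~295 in deleted MEF, the members chosen for their falls had these values. The contrast chose the members, so nothing is read from their direction. mmu-miR-465b-5p had normalized counts of 24.7, 40.7 and 26.2 in the Empty libraries and 4.24, 0 and 2.62 in the miR-290~295 libraries. mmu-miR-881-3p had 21.4, 36.3 and 39.8 in Empty and 3.18, 1.03 and 5.23 with miR-290~295. mmu-miR-465c-5p had 13.5, 42.5 and 37.8 in Empty and 6.36, 0 and 11.3 with miR-290~295. For these members the groups did not overlap, and the gap was narrowest for miR-465c-5p, between Empty library 1 and miR-290~295 library 3.

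mmu-miR-470-5p had 13.5, 23.0 and 28.1 normalized counts in Empty and 0, 6.19 and 3.49 with miR-290~295. mmu-miR-871-3p had 14.6, 24.8 and 16.5 in Empty and 2.12, 1.03 and 2.62 with miR-290~295. Its miR-290~295 libraries had the lowest SD, 0.811, of the 5 Slitrk2-side members above the minimum. mmu-miR-547-3p had 10.1, 16.8 and 14.6 in Empty and 8.48, 9.28 and 5.23 with miR-290~295, again with no overlap but with the smallest distance between groups. Its nearest libraries, Empty library 1 and miR-290~295 library 2, had 9 listed reads each, so their order rests on the size factors.

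The other 3 members had at most 5 reads in any library. miR-741-3p had 3.37, 1.77 and 4.85 normalized counts in Empty and 0, 0 and 4.36 with miR-290~295, so its groups overlapped. miR-878-5p had 2.25, 4.43 and 0 in Empty and 1.06, 0 and 0 with miR-290~295. miR-743a-3p had 1 read in 1 library of each group. Within Empty the means of the 6 members above the minimum ran from 13.8 for miR-547-3p, 18.6 for miR-871-3p and 21.6 for miR-470-5p to 30.6 for miR-465b-5p, 31.3 for miR-465c-5p and 32.5 for miR-881-3p, all of mature strands of 21 to 23 bases. The last 3 do not differ beyond their SDs of 8.85, 15.6 and 9.78. Empty library 1 was the lowest of its group for all 6 of these members. Library 2 of miR-290~295 was the lowest for miR-465b-5p, miR-465c-5p, miR-871-3p and miR-881-3p and the highest for miR-470-5p and miR-547-3p.

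**Figure D3:**
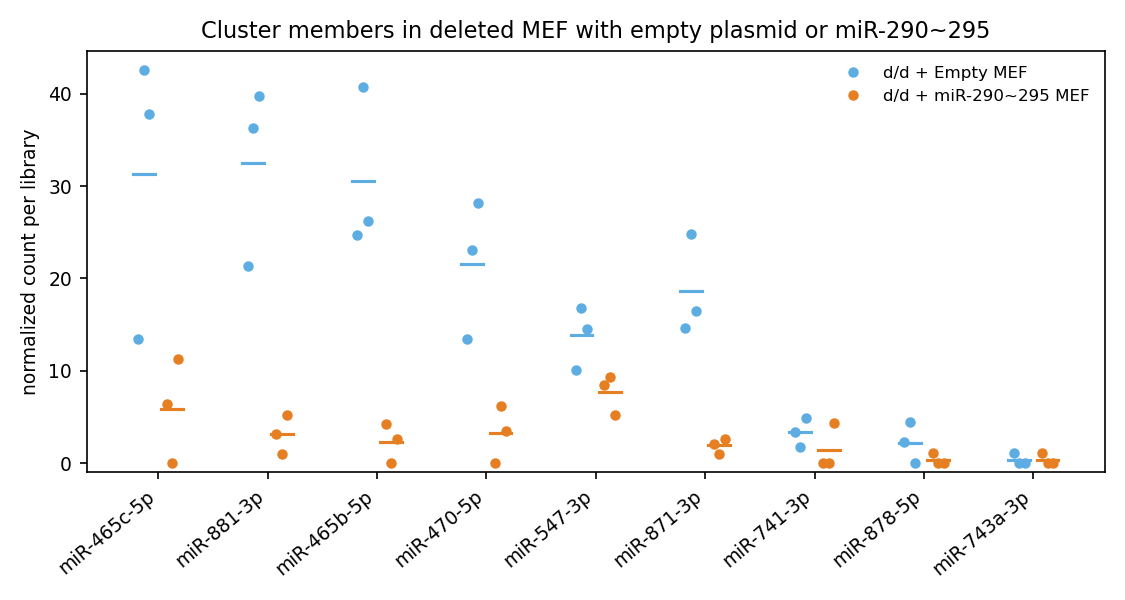
Normalized counts of the 9 listed members in MEF without miR-17~92 that carry an empty plasmid (Empty) or overexpress miR-290~295. Each point is 1 library and each line a group mean of 3. The groups do not overlap for 6 members, and for miR-741-3p, miR-878-5p and miR-743a-3p every value is below 5.

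As log2 differences of miR-290~295 against Empty, given without a test, the values were −3.53 ± 0.61 (SE) for miR-465b-5p, −3.11 ± 0.50 for miR-881-3p, −2.77 ± 0.69 for miR-470-5p, −2.75 ± 0.46 for miR-871-3p and −2.69 ± 0.83 for miR-465c-5p. They were −1.24 for miR-741-3p, −1.03 for miR-878-5p, −0.78 ± 0.42 for miR-547-3p and −0.01 for miR-743a-3p. Groups did not overlap, with miR-290~295 lower, for 6 of the 9 members, beside 18.3% of all 1265 listed miRNAs, and since the choice of members fixed this count nothing is read from it. The summed level of the members was 154 ± 44.5 normalized counts in Empty and 26.3 ± 8.67 with miR-290~295. With spike-in scaling the median of all tested miRNAs moved from 0.02 to −0.46, and the difference of miR-547-3p from −0.78 to −1.22.

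Other miRNAs moved with this difference between the same libraries. The mesenchymal and fibroblast list, with 6 of 6 listed, summed to between 2951060 and 4216330 normalized counts in Empty and to between 1821210 and 2095950 with miR-290~295. The few reads on miR-17~92 miRNAs that remained in these deleted cells (6 of 9 listed) summed to 648 to 972 normalized counts in Empty and 129 to 166 with miR-290~295. The male germ cell list (3 of 4 listed, miR-202-5p not) overlapped, at 15639 to 28748 against 21617 to 26154, and the embryonic stem cell list was listed for 0 of 4. The part of the mesenchymal list and of the remaining miR-17~92 reads in the members' difference was not tested.

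**Figure D4:**
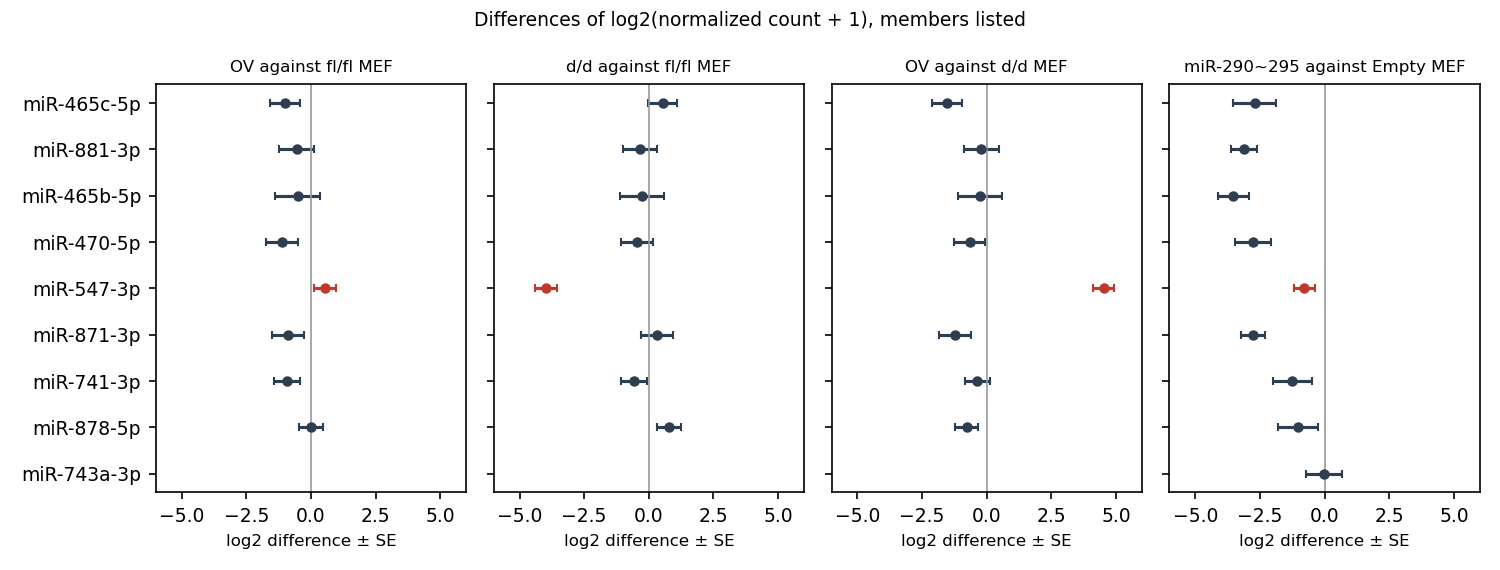
Differences of log2(normalized count + 1) for each listed member in the 4 MEF comparisons, with bars of 1 SE. miR-547-3p is in red, at −3.97 in d/d against fl/fl and 4.52 in OV against d/d, and the Slitrk2-side members in dark blue. The rightmost panel is the contrast that chose the members.

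Against position, the 5 members with the highest Slitrk2-side means came from hairpins between 1842.7 and 1876.5 kb before Fmr1, the part of the group with Mir465b, Mir465c, Mir470, Mir871 and Mir881. The members from hairpins at greater distance, miR-878-5p at 1877.0 kb, miR-741-3p at 1881.7 kb and miR-743a-3p at 1901.7 kb, had at most 5 reads in any MEF library. The hairpins are transcribed from the minus strand, so Mir465 lies upstream and Mir743 downstream. Only part of the hairpins had a listed strand, so no trend with position is drawn.

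**Figure D5:**
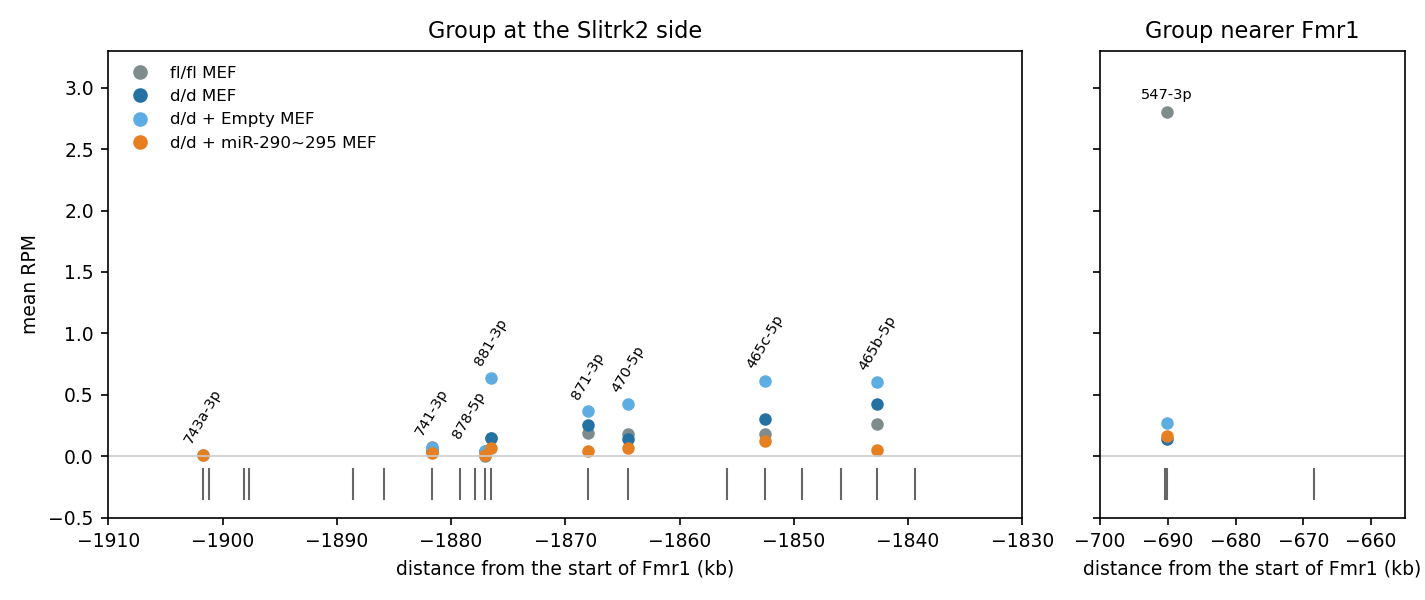
Mean RPM (reads per 1000000 reads on listed miRNAs) of each listed member, by the distance of its hairpin from the start of Fmr1 in kb. Colours mark 4 MEF groups (OV is not drawn) and grey ticks all annotated hairpins of the cluster, with miR-465b-5p and miR-465c-5p drawn at 1 of their 2 hairpins each. miR-547-3p, alone in the right panel, is highest in fl/fl among the groups drawn, and the 5 most abundant members on the left have their highest means in Empty.

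The 3p strands of the miR-465 family, which are no members, show how reads of repeated hairpins were listed. miR-465a-3p, miR-465b-3p and miR-465c-3p have the same sequence, shown because it is encoded by 5 hairpins.
mmu-miR-465a-3p: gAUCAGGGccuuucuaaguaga

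All 3 names had the same reads in every MEF library, and each value was a whole multiple of 5. In each MEF set these were the only 3 miRNAs whose reads all shared a largest common factor of 5, while 1.45% of 1104 miRNAs with reads in at least 4 libraries of the miR-17~92 set and 3.01% of 1131 in the miR-290~295 set had reads with any common factor above 1. Divided by 5, the values were 1, 0 and 0 in OV, 2, 1 and 0 in fl/fl, 1, 2 and 5 in d/d, 4, 4 and 2 in Empty and 2, 0 and 1 with miR-290~295. The 3 names carry the same reads and are not separate values. The reads of miR-465b-5p and miR-465c-5p, with 2 hairpins each, shared no common factor above 1, which any odd value is enough to break. Most of their nonzero values were even. Whether part of their reads was listed once per hairpin was not tested, so their listed reads may not be separate reads.

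In B cells miR-547-3p was listed at 61.6 normalized counts in the OV library (46 reads), 51.9 in the fl/fl library (55 reads) and 10.3 in the d/d library (13 reads). With 1 library per group there is no test. The ratio of d/d to fl/fl was 0.199, with a 95% interval of 0.0998 to 0.369, and that of OV to fl/fl 1.19, with 0.786 to 1.79, with all these intervals for counting error only. In RPM the OV library was below fl/fl, at 4.51 against 5.18, so their order rests on the size factors. The d/d library had 1.23 RPM. On the normalized scale the 95% Poisson intervals were 5.50 to 17.6 in d/d, 39.1 to 67.5 in fl/fl and 45.1 to 82.2 in OV, so d/d lay apart and fl/fl and OV overlapped. miR-741-3p had 1 read in the OV library, 5 in fl/fl and 0 in d/d, and a limit of 3 reads for a count of 0 is 0.284 RPM there. The B cell libraries differed in other marker lists too. The mesenchymal list summed to 2454 normalized counts in the OV library, 2470 in the fl/fl library and 9384 in the d/d library, and the male germ cell list (3 of 4 listed) to 672, 1408 and 5340, while the B cell and blood list was at 141882, 146843 and 151275. Their part in the values of miR-547-3p was not tested. miR-17~92 itself summed to 31762, 1255540 and 4956840 in d/d, fl/fl and OV.

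The miRNAs most like the summed members were found by Pearson's r over libraries with log2 levels, as a description over libraries that share group and depth. Over the 9 libraries of the miR-17~92 set, among 661 miRNAs, they were miR-6960-5p (r = 0.96), miR-744-5p (0.93) and miR-30c-2-3p (0.92), where miR-547-3p makes up most of the sum in OV and fl/fl and the Slitrk2-side members most of it in d/d. Over the 6 libraries of the miR-290~295 set, among 831, they were miR-20a-5p, a miR-17~92 miRNA (0.98), miR-434-5p (0.98) and miR-7213-5p (0.98). The mean of miR-20a-5p was 24.0 normalized counts in Empty and 0.644 with miR-290~295. Those of miR-434-5p were 454466 and 219639, and those of miR-7213-5p 18.1 and 4.42. In the first set, means in OV, fl/fl and d/d were 192, 159 and 88.7 for miR-6960-5p. They were 30090, 29952 and 23303 for miR-744-5p and 9488, 9661 and 7072 for miR-30c-2-3p. A high r thus does not mean a difference of like size. The second set holds the contrast that chose the members.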

How the data were processed

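Total RNA with spike-ins was gel-purified for small RNAs and made into libraries with the NEBNext small RNA kit, per the labels' protocols. The deposited values are a signal: counts per mature miRNA divided by 1 factor per library, with DESeq2 named in the submitters' processing notes. The aligner, miRNA annotation and build: not given in the sources used here. In every library 100% of values were whole multiples of 1 step within 0.0001, so reads were recovered. The 33 columns of transformed values were not used. OV and fl/fl MEF columns match only their group.

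Tables without spike-in scaling were tested with limma 3.58.1 (R 4.3.3, trended variance, group as the only term, pseudocount 1, mean of at least 10, adjusted p under 0.05). The 9 libraries of the miR-17~92 set shared 1 estimate of the spread. Alternatives were spike-in tables, pseudocounts of 0.5 and 5, no minimum, edgeR 4.0.16 with TMM, DESeq2 1.42.0, leaving out each library and a replicate block. On recovered reads edgeR called 182 miRNAs between OV and fl/fl, 391 between d/d and fl/fl, 350 between OV and d/d, and 327 between miR-290~295 and Empty. Tests were checked on simulated data. Members and lists were chosen with earlier results of these data known. Named are all listed members, the cluster's other listed strands and the 3 miRNAs most like the members' sum in each MEF set.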

Additional observations from a re-analysis of the deposited data

How the results depend on the processing

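In OV against fl/fl 207 miRNAs were called, and 124 to 233 when 1 library was left out, with the lowest count without fl/fl library FL5; the cause was not tested. The other counts stayed within 1.5 times of theirs: 386 in d/d against fl/fl, 347 in OV against d/d and 327 in miR-290~295 against Empty. The log2 difference of the members' summed level depended on miR-547-3p, the member with the highest mean in the miR-17~92 set. Without it the value went from 0.27 to −0.97 in OV against fl/fl, from −1.48 to 0.20 in d/d against fl/fl and from 1.75 to −1.16 in OV against d/d, as its share of the sum implies. In miR-290~295 against Empty the value went from −2.51 to −2.99 with spike-in scaling, whose factors shift all miRNAs of a library alike, and was −2.97 without miR-547-3p, a setting chosen after seeing the data. With 1 library left out these sums ran from 0.04 to 0.64, −1.82 to −1.16, 1.43 to 2.12 and −2.77 to −2.26. The fits without a minimum that use edgeR or leave out 1 library were also added after seeing the data. A replicate block, possible in the miR-290~295 set only, gave 298 calls. After centring within each group, same-numbered libraries correlated at 0.280, 0.012 and −0.261, and not every library correlated best with its own number. Centred values of 3 libraries constrain each other, so whether the numbers pair the libraries cannot be decided from these correlations. Depth limits the Slitrk2-side members, which had at most 17 reads per library in the miR-17~92 set.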
